A study of Mus musculus with 12 samples.

Results

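The regions described here are distal sites of ESRRB chromatin immunoprecipitation (ChIP) signal in mouse embryonic stem cells that appear in the authors' peak list of a line with Nanog and not in that of a line without it. A region of the count table was taken when it overlapped the first list by at least 1 bp and no peak of the second, when its centre lay more than 1 kb from both ends of every protein-coding gene, and when it lay inside a gene or within 100 kb of one. Of 86201 regions in the table, 52891 were listed with Nanog alone. Among these, 7354 had their centre within 1 kb of a gene end and 5259 lay beyond 100 kb, which left 40278 Nanog-only distal regions, 23776 inside genes and 16502 outside. They were set against 25250 distal regions that overlapped both lists, chosen by the same distances.

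ESRRB is an orphan nuclear receptor that binds DNA as a monomer or dimer at an extended form of a receptor core motif and takes part in the pluripotency network of embryonic stem cells. NANOG is a homeodomain factor of that network, and Esrrb is known as one of its target genes. Both factors are known to occupy distal enhancers, stretches of open chromatin away from promoters where several pluripotency factors often bind together.

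Each line gave 3 ESRRB ChIP libraries, called A, B and C after the columns of the table. The line labelled NanogKO:Esrrb:Nanog is called with Nanog in what follows. The line labelled NanogKO:Esrrb is called without Nanog, so both lines carry the Nanog knockout together with Esrrb. Every sample carries the single cell line name N{delta}:cE:iN, was grown untreated in serum with leukaemia inhibitory factor, and was fixed with formaldehyde either alone or with di(N-succinimidyl) glutarate after it. The sources used here do not give the fixation of each library, how Nanog was restored, whether a line is 1 clone or whether its libraries came from separate cultures, so the spread between libraries may be technical. The counts measure ESRRB binding and not NANOG or transcripts, so they check neither the Nanog labels nor the cell type.

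Sequence was read where a Nanog-only region overlapped an annotated promoter window of RefSeq, 250 bases before to 50 bases after a start, on GRCm38.p6. Of the 40278 regions, 863 did so. Windows of protein-coding genes were met by 474 of them, all inside genes, and windows of long non-coding RNAs alone by 389. The core motif of ESRRB, AAGGTCA, searched on both strands, stood in 80 of 952 windows that overlapped a Nanog-only region (8.403%), in 121 of 878 that overlapped a distal region of both lists and no Nanog-only region (13.8%), and in 4.72% of all 32851 windows. The longer form TCAAGGTCA, which contains the core motif, stood in 5, 15 and 139 windows of the same sets, or 0.525%, 1.71% and 0.423%. Windows of a gene can overlap, and a match shows letters and not a bound site.

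The 250 bases before the start are printed for 6 of these windows, 5′ to 3′ on the gene's strand, with AAGGTCA or its reverse complement TGACCTT in capitals. They were chosen because the letters lie inside the Nanog-only region, and for their calls or the longer form. Among 37 such regions at or above the median signal, 5 were called higher and 0 lower by edgeR. Of all 842 tested regions at a promoter window 7.60% were called higher, against 11.8% of those at none and 9.42% of all regions of the table tested. The share was 4.75% at windows of protein-coding genes (22 of 463) and 11.1% at windows of long non-coding RNAs alone (42 of 379). Pkd2, Gm46838 and Gm32219 had regions called higher with Nanog (that of Gm46838 not after all libraries were thinned to equal totals), Lrba and Tank had stronger regions that were not called, and Gm39359 has the longer form.
Pkd2, chr5:104459207-104459456, plus strand: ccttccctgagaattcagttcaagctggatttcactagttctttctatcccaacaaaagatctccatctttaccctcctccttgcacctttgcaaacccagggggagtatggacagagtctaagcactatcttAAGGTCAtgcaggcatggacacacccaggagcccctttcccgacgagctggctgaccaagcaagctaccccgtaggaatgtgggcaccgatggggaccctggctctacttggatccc
Gm46838, chr3:105825854-105826103, minus strand: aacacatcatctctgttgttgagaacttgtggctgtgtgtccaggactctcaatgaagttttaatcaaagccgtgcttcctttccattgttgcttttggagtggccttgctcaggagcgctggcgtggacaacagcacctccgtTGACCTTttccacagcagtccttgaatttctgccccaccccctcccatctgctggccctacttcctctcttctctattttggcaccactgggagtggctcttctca
Gm32219, chr12:70539455-70539704, plus strand: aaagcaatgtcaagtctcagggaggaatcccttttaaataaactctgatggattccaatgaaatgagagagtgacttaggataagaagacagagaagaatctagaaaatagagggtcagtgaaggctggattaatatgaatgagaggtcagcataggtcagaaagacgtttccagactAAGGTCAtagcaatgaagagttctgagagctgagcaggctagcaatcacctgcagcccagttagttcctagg
Lrba, chr3:86224440-86224689, plus strand: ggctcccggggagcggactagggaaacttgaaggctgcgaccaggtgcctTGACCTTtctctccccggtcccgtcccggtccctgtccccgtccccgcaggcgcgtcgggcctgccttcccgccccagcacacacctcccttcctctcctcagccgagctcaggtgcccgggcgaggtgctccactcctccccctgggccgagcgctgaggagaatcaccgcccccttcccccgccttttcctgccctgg
Tank, chr2:61592847-61593096, plus strand: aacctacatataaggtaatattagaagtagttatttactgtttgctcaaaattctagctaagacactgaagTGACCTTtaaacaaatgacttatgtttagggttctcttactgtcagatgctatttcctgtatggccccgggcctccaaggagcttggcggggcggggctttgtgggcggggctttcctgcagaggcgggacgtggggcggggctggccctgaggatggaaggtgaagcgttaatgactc
Gm39359, chr9:63795681-63795930, minus strand: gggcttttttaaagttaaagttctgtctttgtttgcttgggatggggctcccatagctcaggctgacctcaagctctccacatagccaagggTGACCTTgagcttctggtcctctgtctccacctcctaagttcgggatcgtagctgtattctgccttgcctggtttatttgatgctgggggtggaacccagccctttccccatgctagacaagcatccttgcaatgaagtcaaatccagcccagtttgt

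Pkd2 encodes polycystin-2, a cation channel, and the core motif lay 117 bases before the start, counted to its first base. ESRRB signal at this region was 17.2, 18.2 and 15.2 CPM (counts scaled to library size by TMM) with Nanog and 14.2, 8.70 and 10.8 CPM without, a log2 fold change of 0.61 ± 0.20 (SE). This call was lost with DESeq2, after thinning, and without library A or B with Nanog or B or C without, at log2 fold changes of 0.49 to 0.61. At the long non-coding RNA gene Gm32219 the core motif lay 72 bases before the start, and signal was 14.1, 17.7 and 16.8 CPM with Nanog and 7.46, 7.85 and 6.67 CPM without. At both Pkd2 and Gm32219, every library with Nanog lay above every library without. Lrba, which encodes a BEACH-domain protein of vesicle traffic, held 23.6, 21.5 and 22.3 CPM with Nanog and 19.0, 17.7 and 21.2 CPM without, so the libraries did not overlap although the region was not called. At Tank, an adaptor of NF-kappa-B signalling, the libraries overlapped, with 23.2, 20.1 and 17.3 CPM with Nanog and 13.1, 20.8 and 17.1 CPM without. Signal was lower at Gm39359, the window with the longer form, where it was 5.98, 3.54 and 4.71 CPM with Nanog and 5.59, 3.09 and 5.10 CPM without.

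A call in what follows is an adjusted p under 0.05 in edgeR's quasi-likelihood test over all 84892 regions that passed the count filter, with Benjamini-Hochberg adjustment. Because the regions were chosen by peak lists made from the same libraries, their differences between the lines are given as a description with no p-value. Each fold change is set against the rest of the table, so a shift shared by the whole table would go unseen.

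The Nanog-only distal regions were weak sites of signal in both lines and took a larger share of the counts with Nanog. They held 22.9%, 23.8% and 22.8% of all counts in regions in libraries A, B and C with Nanog, against 18.8%, 20.5% and 19.6% without. No library of one line reached into the range of the other, and the means were 23.2% ± 0.55 with Nanog and 19.7% ± 0.87 without (SD, n = 3 each). Distal regions of both lists went the other way, with 52.6%, 52.4% and 53.4% with Nanog and 56.6%, 55.1% and 55.9% without. The Nanog-only regions were chosen by peak lists of these same libraries, so nothing is read from their larger share with Nanog. All shares are of the same total, so a larger share for any set leaves less for the rest. The Nanog-only regions averaged per region a median of 4.59 CPM with Nanog and 4.46 CPM without, against 14.3 and 15.5 CPM at distal regions of both lists.

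Depth differed between the lines and set how well a single region was measured. Counts in regions summed to 6689166, 8382646 and 7834773 in libraries A, B and C with Nanog and to 2734338, 3600055 and 5193707 without. The median Nanog-only region held 31, 40 and 36 counts with Nanog and 12, 16 and 22 without. Fewer than 10 counts were found at 1.47%, 1.05% and 1.27% of the regions with Nanog and at 36.8%, 21.1% and 10.1% without. The peak lists were made at these unequal depths. After all libraries were thinned to 2734338 counts, the median was 13 in each library with Nanog and 12 in each without, and the share under 10 counts was 30.8%, 32.2% and 33.1% with Nanog and 36.8%, 35.8% and 38.2% without. The part of depth in the list membership of these regions was not tested beyond these values.

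**Figure D1:**
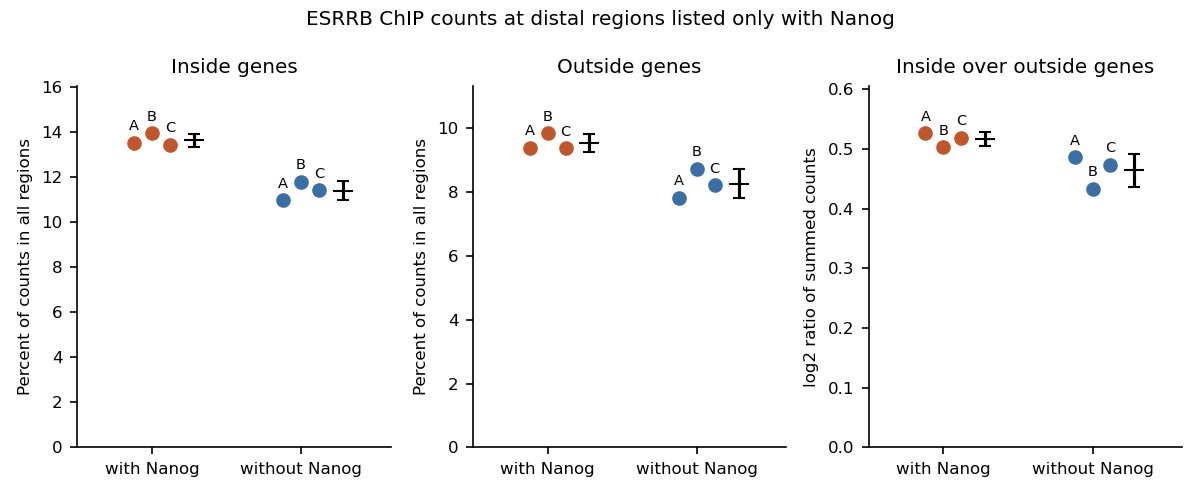
Share of all counts in regions that fell in Nanog-only distal regions inside genes (left, percent) and outside genes (middle, percent), and the log2 ratio of inside over outside counts (right), by library. Points are libraries A to C, and bars are means with SD (n = 3 per line). All 3 libraries with Nanog lie above all 3 without in each panel. The regions were chosen by peak lists of these same libraries.

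Of the 40278 regions, 39418 passed the count filter and 860 did not. Calls were made at 4598 regions higher with Nanog (11.7%) and 820 lower (2.08%), while 34000 were not called (86.3%). Over all regions tested, 9.42% were called higher and 9.78% lower, and the peak lists used the same contrast, so nothing is read from these counts. At least 2-fold differences numbered 2843 higher and 222 lower, where 4.38% and 2.09% of all regions were so called. Libraries did not overlap between the lines at 8259 regions that were higher with Nanog and 2720 that were lower, or 21.0% and 6.90%, beside 17.0% and 16.8% of all regions.

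Being listed only with Nanog did not mean a higher level with Nanog at every region. The median log2 fold change was 0.11, with quartiles of -0.21 and 0.47 and a range from -2.04 to 4.21, against a median of -0.20 at distal regions of both lists. Mean CPM was lower with Nanog than without at 16459 of the regions (40.9%). At 4301 of them (10.7%) the mean without Nanog was at least 8.15 CPM, the 10th percentile of that mean over the distal regions of both lists. The counts of calls rested in part on single libraries. Higher calls numbered 2837 without library B with Nanog, and lower calls numbered 323, 277 and 352 without libraries A, B and C with Nanog and 506 without library C without Nanog. DESeq2 called 2466 higher and 218 lower, and thinning to equal totals left 1383 and 73. Among regions with a mean count of at least 50 the median log2 fold change was 0.41.

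**Figure D2:**
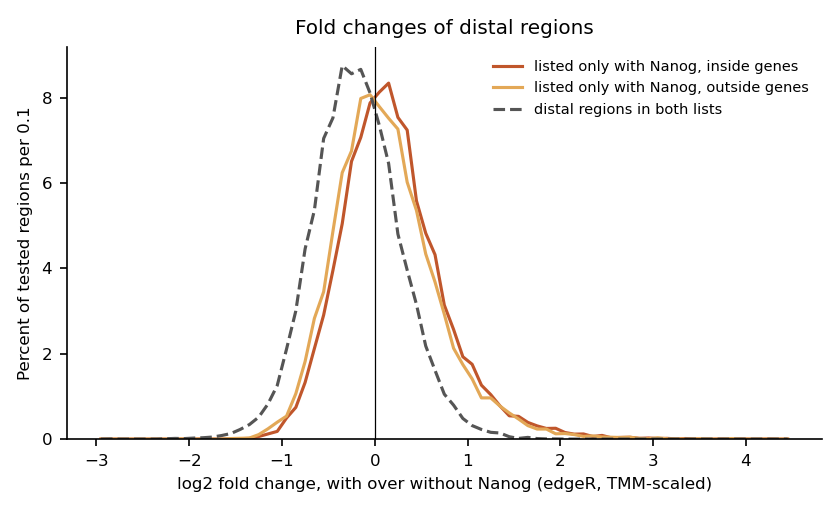
Distribution of log2 fold changes, with over without Nanog, for tested Nanog-only distal regions inside and outside genes and for distal regions in both lists (percent of tested regions per 0.1 of log2). The curves overlap widely, with medians of 0.14 inside genes, 0.07 outside genes and -0.20 in both lists.

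Regions inside genes and regions outside genes differed a little in the same direction. More of the Nanog-only regions lay inside genes (59.0%) than of the distal regions in both lists (52.9%). Inside genes, 2866 of 23267 tested regions were called higher and 404 lower, with a median log2 fold change of 0.14. Outside genes, 1732 of 16151 were called higher and 416 lower, with a median of 0.07. Per library, the log2 ratio of summed counts inside over outside was 0.53, 0.50 and 0.52 with Nanog and 0.49, 0.43 and 0.47 without. These did not overlap, and their means differed by 0.05. Without library B without Nanog the difference was 0.04. For distal regions of both lists the same log2 ratio was 0.06, 0.05 and 0.07 with Nanog and 0.03, 0.00 and 0.05 without. These overlapped only narrowly (0.0473 at the lowest with Nanog, 0.0475 at the highest without), and their means differed by 0.03. The median log2 fold change of these regions was -0.18 inside genes and -0.23 outside, so the direction was not particular to Nanog-only regions.

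The share called higher differed more over width than over position. The median width was 277 bp (quartiles 217 and 360), against 514 bp (387 and 731) at distal regions of both lists. Of the 1888 regions over 600 bp wide, 751 were called higher (39.8%) and 4 lower, with a median log2 fold change of 0.44. Over 200 and up to 300 bp, the class with most regions, 1082 of 16542 were called higher (6.54%) and 461 lower, with a median of 0.02. The widest class also had the most signal, with a median of 14.6 CPM with Nanog and 10.5 CPM without, against 3.96 and 3.97 CPM over 200 and up to 300 bp. Width thus went with signal, and the regions were chosen by peaks called in these same libraries, so nothing is read from the calls by width. There were 404 regions of 50 bp or less, of which 14 passed the count filter and 0 were called higher by edgeR.

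Regions far from any region of both lists were called higher more often than regions close to one. The nearest region of both lists lay at a median of 11.9 kb, and 12422 Nanog-only regions (30.8%) had one within 5 kb. Of those within 2 kb of such a region, 8.61% were called higher and 2.30% lower, and of those over 50 kb away 13.5% and 2.12%. Among all regions tested 9.42% were called higher and 9.78% lower, and shares by distance were not computed for other regions. The Nanog-only regions were chosen by peaks called in these same libraries, so nothing is read from their calls by distance. Medians of the log2 fold change in the classes of distance stayed between 0.11 and 0.12. The log2 ratio of counts near over far, split at 5 kb, averaged -1.12 ± 0.04 with Nanog and -1.09 ± 0.04 without (SD, n = 3 each), and the libraries overlapped. By width, 4.22% near and 4.35% far were called higher up to 200 bp, 5.002% and 7.16% over 200 and up to 300 bp, 9.80% and 13.7% over 300 and up to 400 bp, and 22.5% and 31.8% over 400 bp.

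**Figure D3:**
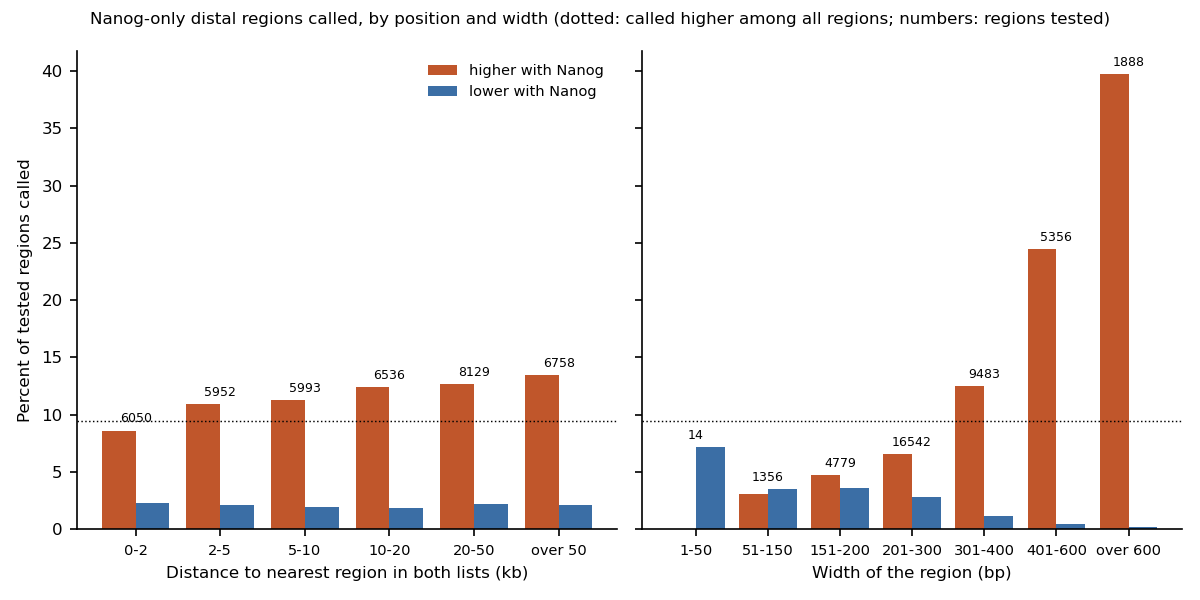
Percent of tested Nanog-only distal regions called higher or lower with Nanog by distance to the nearest region in both lists (left, kb) and by width (right, bp). Numbers above bars are regions tested and the dotted line is the share of all regions called higher, 9.42%. The share called higher runs from 8.61% to 13.5% over distance and reaches 39.8% in the widest class.

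Distance from genes showed a similar slope, beside 9.42% called higher over all regions tested, and nothing is read from it either. Outside genes, 282 of 3272 tested regions up to 5 kb from a gene were called higher (8.62%) and 417 of 2986 at 50 to 100 kb (14.0%). Inside genes, 497 of 5554 at 1 to 5 kb from a gene end were called higher (8.95%) and 361 of 2327 over 100 kb from an end (15.5%). By chromosome the median log2 fold change ran from 0.07 on chromosome 7 to 0.20 on chromosome 14, leaving out chromosome Y with 1 region. Values just inside and outside the limits of the rule were as follows. Medians of log2 fold change were 0.11 among the 774 regions just inside the limit of 1 kb from a gene end (up to 1.2 kb) and 0.14 among 961 regions just outside it (from 0.8 kb), with median signals of 4.66 CPM with and 4.30 CPM without Nanog in the first set and 4.81 and 4.45 CPM in the second. At 90 to 100 kb from a gene, 462 regions had a median of 0.14 and 10.4% called higher, and 379 regions at 100 to 110 kb had 0.15 and 14.6%. The 52 regions that missed the rule by an overlap of 1 to 50 bp with the list without Nanog held 8.73 CPM with Nanog and 9.31 CPM without, with a median log2 fold change of -0.09. The 404 regions with an overlap of 50 bp or less with the list with Nanog were those that are themselves 50 bp wide or less, with a median width of 25 bp. They held 0.913 CPM with Nanog and 0.903 CPM without (medians), and the 14 of them tested had a median of -0.45. Because these 404 regions are so narrow, their signal does not describe the limit set by list overlap.

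Among Nanog-only regions at or above the median signal and with separate libraries, the 8 largest increases inside genes had log2 fold changes from 2.71 to 3.27. Genes were assigned by position, which leaves unsaid whether the region acts on them. Inside Ncam1, a neural cell adhesion molecule, the region chr9:49653718-49654346 held 32.4, 39.5 and 44.2 CPM with Nanog and 4.10, 5.61 and 2.75 CPM without, a log2 fold change of 3.27 ± 0.22. Signal inside Nudcd2, at chr11:40737363-40737944, was 38.2, 42.1 and 39.5 CPM with Nanog and 5.22, 5.05 and 5.10 CPM without. Vps41, a subunit of the HOPS complex that tethers endosomes and lysosomes, held 21.0, 22.2 and 24.7 CPM with Nanog and 4.85, 1.68 and 2.35 CPM without at chr13:18841814-18842304. At Btbd11, a BTB-domain gene, values were 20.1, 23.1 and 21.4 CPM with Nanog and 3.36, 1.96 and 2.94 CPM without. No library without Nanog reached the level of any library with Nanog at these regions, which was a condition of their choice. Luc7l3, a gene of splicing, held 15.6, 16.9 and 19.9 CPM with Nanog and 2.24, 3.37 and 2.16 CPM without. Adam19, a membrane metalloprotease, held 26.4, 34.9 and 34.7 CPM with Nanog and 4.10, 3.37 and 6.47 CPM without. The other regions of the set, inside Cpne4 and Tmem178b, had log2 fold changes of 3.03 ± 0.28 and 3.01 ± 0.27. Nudcd2, Luc7l3 and Adam19 had a region of both lists within 15 kb (9.8, 14.6 and 6.7 kb), while the nearest one to the Tmem178b region was 142 kb away.

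Outside genes, by the same rule, the largest increase lay 5.3 kb from Poli, a translesion DNA polymerase, with 30.9, 36.7 and 45.5 CPM with Nanog and 4.85, 2.52 and 2.75 CPM without (log2 fold change 3.55 ± 0.24). The region 4.4 kb from Dstyk, a dual-specificity kinase, at chr1:132470883-132471903, was the strongest of this set, with 65.8, 65.3 and 74.5 CPM with Nanog and 6.71, 8.13 and 8.43 CPM without. Klf10, a zinc finger factor induced by TGF-beta, had a region 12.5 kb away with 12.0, 19.0 and 13.8 CPM with Nanog and 1.49, 3.09 and 1.37 CPM without. Id4, an inhibitor of basic helix-loop-helix factors, had one 53.1 kb away with 10.1, 11.4 and 18.4 CPM with Nanog and 1.12, 3.09 and 1.77 CPM without. Regions near Adamts8, Pctp, Lonrf2 and Tmem132d had log2 fold changes from 2.74 to 3.04. In all 16 regions the lowest library with Nanog was above the highest without, as the rule of choice required.

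**Figure D4:**
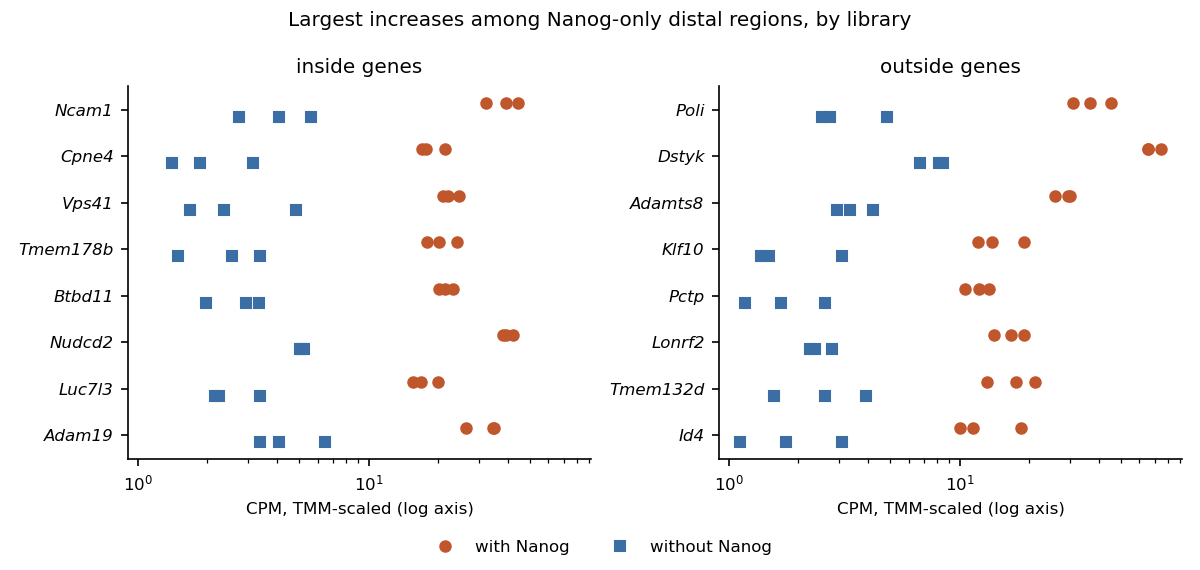
ESRRB ChIP signal (CPM, TMM-scaled, log axis) by library at the largest increases inside genes (left) and outside genes (right), named by the gene they lie in or nearest to. Each point is 1 library, 3 with Nanog (circles) and 3 without (squares). The 2 lines do not overlap at any of these regions, which were chosen for that.

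Some Nanog-only regions held less signal with Nanog. Inside Prrxl1, a paired-like homeobox gene of sensory neurons, signal was 4.23, 2.95 and 3.95 CPM with Nanog and 13.8, 4.49 and 19.4 CPM without, a log2 fold change of -1.81 ± 0.32 in which the libraries without Nanog were far apart. Ngef, a guanine nucleotide exchange factor of ephrin signalling, held 3.06, 2.71 and 3.57 CPM with Nanog and 4.85, 8.41 and 12.2 CPM without. Near Sowahd, 1.7 kb away on chromosome X, values were 3.50, 2.01 and 2.68 CPM with Nanog and 5.59, 9.54 and 8.63 CPM without. The region near Pecam1, an endothelial adhesion molecule, held 4.23, 3.77 and 4.08 CPM with Nanog and 11.2, 6.45 and 10.98 CPM without. These regions were weak with Nanog, with means of 2.73 to 4.03 CPM over all 8 decreases named. Without Nanog their means were 7.92 to 12.6 CPM, against a median of 4.46 CPM over all Nanog-only regions. Those inside Prrxl1 and Clnk and near Bicc1, 1700042G07Rik and Pecam1 lost their call when libraries were thinned to equal totals, with log2 fold changes there of -1.26 to -0.94.

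The strongest Nanog-only regions reached the level of regions in both lists. Near Foxd3, a forkhead factor of the early epiblast, the region of 1273 bp at chr4:99635842-99637114 held 70.0, 93.5 and 86.4 CPM with Nanog and 13.8, 15.2 and 11.4 CPM without. Slit3, a secreted axon guidance ligand, held the widest of the Nanog-only regions, 2539 bp at chr11:35416137-35418675, with 74.9, 86.4 and 70.3 CPM with Nanog and 32.1, 40.1 and 31.4 CPM without. Near Zfp825, a zinc finger gene, values were 61.2, 73.1 and 63.3 CPM with Nanog and 11.6, 21.9 and 12.9 CPM without. Inside Tet2, an enzyme that oxidises methylcytosine, they were 44.2, 46.9 and 44.1 CPM with Nanog and 23.9, 38.4 and 20.2 CPM without, and this call, with a log2 fold change of 0.73, was lost after thinning at 0.57. A strong region did not have to differ. Cdk8, a Mediator kinase, held 33.0, 39.5 and 28.5 CPM with Nanog and 39.2, 53.9 and 35.3 CPM without, and Kiz, a centrosomal protein, 33.1, 34.9 and 37.2 CPM with Nanog and 26.5, 26.4 and 34.7 CPM without, both with overlapping libraries. The strong region inside Sfi1 was called lower except after thinning, and reads there are uncertain because that locus is known to be repeated in the genome.

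Nanog-only regions were spread over many genes, and a few genes held many. At least 1 lay inside each of 8669 genes, and 40 genes held at least 20. Msi2, an RNA-binding protein of stem and progenitor cells, held the most with 46 regions, 7 of them called higher and 0 lower. Pdzd2, a PDZ-domain protein, had 11 higher and 0 lower calls among 32 regions, and its log2 fold changes had a median of 0.33. Pde4d, a cyclic AMP phosphodiesterase, had 3 higher and 1 lower among 44 tested of its 45 regions. These genes are long, and per 100 kb of gene Msi2 held 12.1 regions, Pdzd2 8.42 and Pde4d 3.46. Outside genes, Hes1, a Notch target, and Sox2, a core pluripotency factor, were nearest to most, with 21 regions each. Hes1 had 6 higher and 0 lower calls, and Sox2 had 0 higher and 1 lower. Many distal regions of both lists lay at some of the same genes, with 28 inside Msi2, 28 inside Pde4d and 6 inside Pdzd2. Outside genes, 16 were nearest to Hes1 and 8 to Sox2. Among all regions tested 9.42% were called higher and 9.78% lower, and nothing is read from the calls at these genes.

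Esrrb itself held 26 Nanog-only regions inside the gene and 1 outside, of which 8 were called higher and 0 lower. Their median log2 fold change was 0.62 over the 27. Beside these calls stand 11.7% higher and 2.08% lower over all tested Nanog-only regions, and 9.42% and 9.78% over all regions. The regions were chosen by peak lists of the same contrast. Distal regions of both lists at Esrrb numbered 6. The strongest Nanog-only region there, chr12:86516230-86516939, held 17.4, 18.0 and 16.6 CPM with Nanog and 10.4, 14.3 and 12.9 CPM without. It was not called, although the libraries did not overlap. Nanog was nearest to 5 Nanog-only regions, with 0 higher and 0 lower calls by edgeR and a median log2 fold change of 0.19.

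The regions were next grouped by lists of genes with known roles. Each list is described by its calls and its median log2 fold change, beside 0.11 over all tested Nanog-only regions and -0.01 over all regions of the table, and no list was tested. Shares called over all tested Nanog-only regions were 11.7% higher and 2.08% lower, and over all regions 9.42% and 9.78%. For all distal regions of both lists they were 8.03% and 21.7%, with a median log2 fold change of -0.20. Counts near these shares are not read as a result about a list. At naive pluripotency genes, which keep embryonic stem cells in their ground state, 25 of 127 regions were called higher and 0 lower, with a median of 0.37. At the same genes, distal regions of both lists had 19 higher and 10 lower calls among 91 and a median of 0.06. Zfp42, a zinc finger marker of naive cells, had 3 higher calls among 8 regions, and its strongest held 22.0, 22.6 and 18.4 CPM with Nanog and 8.95, 14.6 and 6.47 CPM without. Klf4, a Krüppel-like factor, had 4 of 13 higher. Its strongest region held 15.2, 23.8 and 16.2 CPM with Nanog and 8.58, 16.3 and 7.84 CPM without. Those libraries overlapped, and the log2 fold change of 0.78 ± 0.23 was 1.197 without library B without Nanog. The call at Klf4 was lost when library B with Nanog, or A or C without Nanog, was left out, and after thinning, at log2 fold changes of 0.54 to 0.88. Prdm14, a repressor of FGF signalling and DNA methylation, had 3 of 14 higher, while Tfcp2l1 and Klf5 had 0 higher calls by edgeR among 7 and 8 regions.

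At general pluripotency genes, 13 of 111 regions were called higher and 3 lower, with a median of 0.15. Pou5f1, which encodes OCT4, had 3 of 5 higher, and its strongest region, 15.4 kb from the gene, held 19.4, 24.3 and 19.4 CPM with Nanog and 10.1, 14.9 and 12.9 CPM without. This call, with a log2 fold change of 0.72, was lost without library B with Nanog at 0.60 and after thinning at 0.55. Zfp281, a zinc finger factor, held 31.6, 31.1 and 33.4 CPM with Nanog and 8.58, 10.4 and 11.8 CPM without at chr1:136613073-136613649. The lines were far apart at that region, yet over its 16 regions Zfp281 had 2 higher and 1 lower call and a median of 0.01. Genes of the formative and primed epiblast had 10 regions called higher and 0 lower of 86, with a median of 0.09, and 4 of these higher calls were at Foxd3. Cdh2, which encodes N-cadherin, had 3 of 5 regions called higher and a median of 0.84, while its strongest region was not called. Etv5, an ETS factor, had 1 of 15 higher.

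NANOG is known to oppose primitive endoderm, an extraembryonic lineage, and at genes of that lineage 7 of 89 regions were called higher and 6 lower, with a median of -0.06. Distal regions of both lists at these genes had 5 higher and 37 lower among 92, with a median of -0.45. Over all distal regions of both lists 21.7% were called lower, with a median of -0.20. At the other gene lists their medians ran from -0.38 at mesendoderm genes (11 of 25 lower) to 0.11 at neuroectoderm genes (1 of 21 lower). Gata6, a GATA factor of primitive endoderm, held 10.2, 12.9 and 13.6 CPM with Nanog and 10.1, 13.2 and 11.8 CPM without at its strongest Nanog-only region, with no separation of the lines. Foxa2, a forkhead factor, had 0 higher and 2 lower calls among 7 regions. Lamc1, a laminin chain, had 2 higher and 0 lower among 11.

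Of 87 regions at trophoblast genes, 17 were called higher and 2 lower, with a median of 0.27. Tfap2a, an AP-2 factor, had 4 of 8 tested regions higher, with a median of 1.18. Its strongest region held 23.0, 29.3 and 24.7 CPM with Nanog and 6.71, 10.9 and 8.24 CPM without. Gata3, a GATA factor of trophectoderm, had 1 of 13 higher and held 27.1, 30.1 and 27.7 CPM with Nanog and 16.4, 16.3 and 21.4 CPM without. In both, every library with Nanog was above those without, and the call at Gata3, with a log2 fold change of 0.63, was lost after thinning at 0.52. Of 41 regions at mesendoderm genes, 4 were called higher and 3 lower. Eomes, a T-box factor counted among trophoblast genes too, had 1 higher and 2 lower among 11.

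Of 52 regions at neuroectoderm genes, 15 were called higher and 1 lower, with a median of 0.37. The higher calls included 9 at Zfp521, a zinc finger factor of neural differentiation, which had 15 regions and a median of 0.91. Pax6, a paired-box factor, held 19.3, 22.8 and 22.3 CPM with Nanog and 10.1, 17.1 and 13.3 CPM without at its strongest Nanog-only region. Its log2 fold change was 0.65, and the call was lost when library B or C with Nanog or library A without Nanog was left out, at 0.61, 0.62 and 0.52, and after thinning, at 0.68. Genes of axon guidance and neural adhesion had 144 regions, 23 called higher and 4 lower, with a median of 0.19. Robo1, a SLIT receptor, had 4 higher and 1 lower among 16, and its strongest region held 25.7, 31.4 and 27.1 CPM with Nanog and 11.2, 12.1 and 10.98 CPM without, with no overlap. Ncam1 and Cdh2 stand in more than 1 list.

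At genes of FGF and ERK signalling, 28 of 139 regions were called higher and 1 lower, with a median of 0.28. Mras, a RAS-related GTPase, accounted for 9 of the 28, from 14 regions with a median of 1.23. Its strongest region, chr9:99419713-99420946, held 47.5, 63.9 and 55.2 CPM with Nanog and 13.1, 12.1 and 7.26 CPM without, a log2 fold change of 2.43 ± 0.18. Dusp6, a phosphatase of ERK, had 1 of 6 higher, with 35.3, 39.7 and 30.8 CPM with Nanog and 19.8, 22.2 and 22.8 CPM without. The lines were separate at both regions, by the wider gap at Mras. Among feedback inhibitors of the pathway, Spred1 had 3 of 8 tested regions higher, Spred2 4 of 24 and Spry2 2 of 18 with 1 lower.

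Of 76 regions at LIF and STAT3 genes, 12 were called higher and 0 lower, with a median of 0.26. Of the 12, 4 were at Pim1, a kinase gene induced by STAT3, and 4 at Klf4, which is counted in the naive list too. WNT genes had 15 higher and 2 lower among 99 and a median of 0.10. Tcf7l2, a TCF factor, had 3 of 10 higher. Its strongest region held 15.3, 19.1 and 16.7 CPM with Nanog and 6.71, 13.7 and 5.49 CPM without, and the log2 fold change of 1.00 ± 0.24 was 1.53 without library B without Nanog. Without library C without Nanog it was 0.70, and the call was lost, as it was after thinning at 0.65. Of 146 regions at chromatin regulators, 13 were called higher and 0 lower, with 3 of 19 at Chd7, a remodeller, and 0 of 23 at Jarid2, a Polycomb cofactor.

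At mitochondrial energy genes, known targets of receptors related to ESRRB, 2 of 38 regions were called higher and 0 lower, with a median of 0.05. Housekeeping genes had 1 higher and 0 lower among 27 and a median of -0.05. Genes of fibroblasts, the cell type of feeder layers, had 1 higher and 2 lower among 9. These lists hold few regions, so a difference of 1 or 2 calls moves their shares. Col1a2, a collagen chain, held 4.52, 3.77 and 5.73 CPM with Nanog and 8.58, 7.29 and 8.24 CPM without. The lower call at Col1a2, with a log2 fold change of -0.78, was lost with DESeq2 at -0.78, after thinning at -1.41, and without library A or B with Nanog or A or C without at -0.75 to -0.64.

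**Figure D5:**
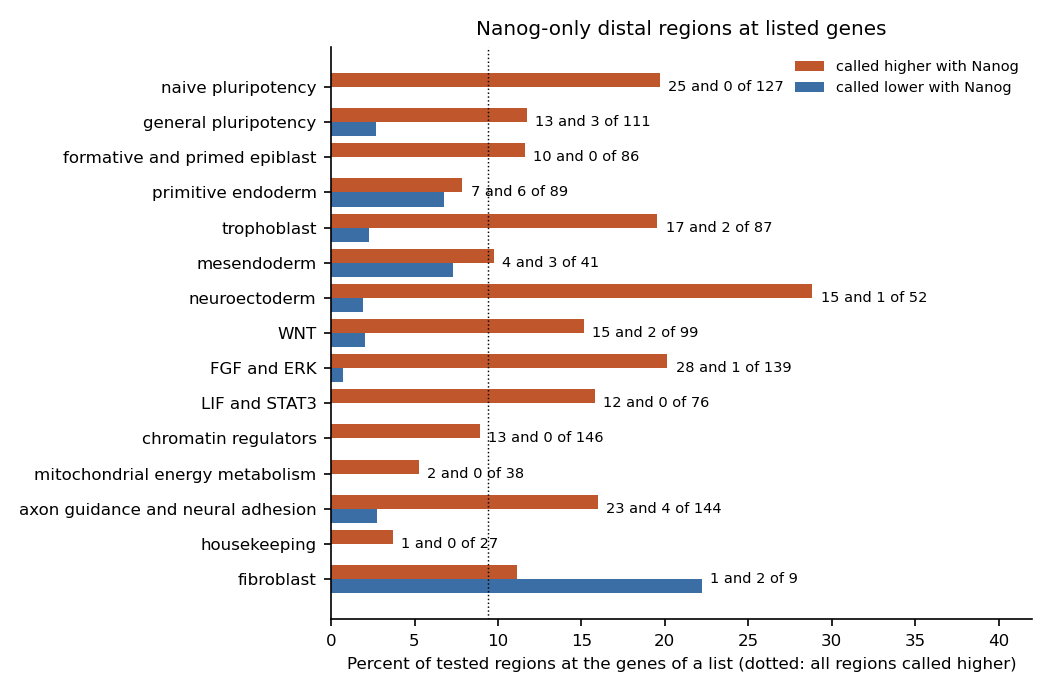
Percent of tested Nanog-only distal regions called higher or lower with Nanog at the genes of each list. Text beside the bars gives the higher and lower calls and the regions tested, and the dotted line is the share of all regions called higher, 9.42%. Neuroectoderm genes have 15 higher calls among 52 regions and housekeeping genes 1 among 27, and lists share some genes.

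Hairpins of microRNAs lay under 20 of the Nanog-only regions, 21 of the 1005 hairpins in the RefSeq table, with 2 called higher and 0 lower by edgeR. Of all tested Nanog-only regions 11.7% were called higher, and of all regions 9.42%, so nothing is read from this count. The region inside Larp7 that overlaps Mir302b reaches into the miR-302 cluster, a group of microRNAs abundant in embryonic stem cells and early embryos. The mature sequences are shown because members of that cluster share seeds, bases 2 to 8, printed in capitals. miR-302b and miR-302d have the same seed in their 3p strands, that of miR-367 in the same cluster differs, and miR-6352 lies under the other region called higher, inside Epha4.
mmu-miR-302b-5p: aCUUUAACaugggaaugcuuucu
mmu-miR-302b-3p: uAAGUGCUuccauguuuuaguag
mmu-miR-302d-3p: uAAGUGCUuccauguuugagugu
mmu-miR-367-3p: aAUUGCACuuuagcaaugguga
mmu-miR-6352: uUUGGGAAaaggaccccagcuc

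At Mir302b, chr3:127544638-127545266 held 20.9, 24.1 and 22.7 CPM with Nanog and 12.7, 21.3 and 7.45 CPM without, and the libraries overlapped (log2 fold change 0.75 ± 0.23). The log2 fold change was 1.27 without library B without Nanog and 0.39 without library C without Nanog, and the call was lost in the second case, without library B or C with Nanog or A without, and after thinning. Only the 5p sequence of miR-302b lies inside the region, which ends before the 3p sequence and the rest of the cluster. At Mir6352, chr1:77496570-77497295 held 24.6, 28.3 and 24.3 CPM with Nanog and 15.3, 16.0 and 15.9 CPM without, with no overlap, and this call, with a log2 fold change of 0.71, was lost after thinning alone, at 0.62. Regions over other microRNA genes were weaker and not called. Mir203, for instance, had 8.89, 10.3 and 8.92 CPM with Nanog and 17.5, 8.41 and 13.5 CPM without.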

How the data were processed

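The authors deposited whole-number read counts for 86201 regions in the 6 ESRRB ChIP libraries, with no normalisation, and a peak list for each line that holds positions and no score. Per the submitters' processing notes, the build was mm10 and the tools included Bowtie2, MACS2, bedtools 2.26.0, SAMtools 1.4.1, deepTools and bcl2fastq 2.19.1. Not given in the sources used here were their settings, the peak threshold, the counter and any removal of duplicates. The peak lists read as shared by the libraries of a line. The 6 input libraries were not analysed here, because the table used has no input column. Columns are lettered, while titles number the replicates, so columns were matched to lines and not to single samples.

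Regions were kept by filterByExpr and scaled by TMM, and every region was fitted with the line alone in edgeR 4.0.16 (glmQLFit, then glmQLFTest; R 4.3.3). P-values were adjusted by Benjamini-Hochberg, with a threshold of 0.05. The SE of a log2 fold change is its size divided by the square root of the F statistic. DESeq2 1.42.0 was an alternative. Genes were the protein-coding spans of RefSeq on GRCm38.p6, the assembly of mm10, without strand, and the shortest span was taken for the 229 regions inside more than 1 gene. Coordinates are 1-based. No genome was used here, so the planned search of whole regions for the core motif of ESRRB was made in promoter windows alone.

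The regions and the 15 gene lists were chosen with earlier results of these data known. A list takes the regions whose nearest gene belongs to it. Named regions had a mean log-CPM (prior count 2) at or above the median of the tested Nanog-only regions. Among these, the 8 largest increases and 4 largest decreases without overlap between the lines, and the 5 strongest regions, were taken inside and outside genes, with 1 region per gene. The 6 genes with the most regions inside and outside, and the strongest region of up to 3 genes per list, were added. The text gives part of them, and genes named by their count of calls were chosen after the values were seen. Printed promoters and microRNAs were also chosen then. In data simulated from these libraries over 84892 regions, true changes of 1.5-fold were called at 1 of 67 regions, 2-fold at 42 of 67 and 4-fold at 62 of 66, along with 8 of 84692 regions left as they were. Far fewer regions were changed there than were called in the data, and they were drawn from the whole table. These rates are thus not the sensitivity at Nanog-only regions.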

Additional observations from a re-analysis of the deposited data

How the results depend on the processing

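Alternatives were other scalings, DESeq2, other count filters, a block by column letter, thinned libraries, each library left out, and other distances and overlaps in the choice of regions. Higher calls at Nanog-only regions, 4598 as reported, numbered 2466 with DESeq2, 1881 among the fewer regions with a mean count of 50 or more, 1383 after thinning to equal totals, and 2837 to 5235 when a library was left out. For lower calls, 820 as reported, the same settings gave 218, 35, 73 and 277 to 1063. For at least 2-fold higher calls, 2843 as reported, they gave 1745, 801, 1303 and 2177 to 3564. The median log2 fold change of 0.11 was 0.15 by column totals, 0.41 with a mean count of 50 or more, and 0.10 to 0.16 with a library left out. Within 50 kb of a gene the LIF and STAT3 list kept 7 of 12 higher calls, and by column totals housekeeping genes had 2 in place of 1. Of the 4598 regions called higher, 4 turned negative after thinning and 0 in the other 12 refits of the table. Of the 820 called lower, 46 kept the call after thinning and 5 turned positive, with 0 turning in the other 12. Of 50 called regions named by the rule, 19 lost their call in at least 1 setting and 0 changed sign, and of 25 not called 6 gained one. Thinning, the stricter filter and left-out libraries reduce reads, regions or libraries by construction, and for the other settings the cause was not tested.

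Letters were not treated as pairing, since no label says what they mark. Deviations of libraries with the same letter had correlations of 0.08, 0.22 and 0.13 across the lines, against -0.16 to 0.04 for other letters. With the letter as a replicate block, 5539 Nanog-only regions were called higher and 1169 lower, and 4576 of the 4598 higher calls were among them.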
